A study of Mus musculus with 2 samples.

Results

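The genes described here are 9 markers of formative and primed pluripotency, Fgf5, Otx2, Pou3f1, Foxd3, Sall2, Zic2, Fgf15, Lef1 and Grhl2, measured in Dicer_KO mouse embryonic stem cells (mESCs). They were taken by name from a list of 10 names, in which Oct6 and Pou3f1 stand for the same gene, and they are 9 of the 43629 genes listed in the deposited tables. All 9 were found, and all 9 averaged at least 10 counts over the libraries, the minimum used for ratios. The study made Dicer knockout mESCs from the E14TG2a line, which has a 129/Ola background, by cutting out part of Dicer1 with paired CRISPR/Cas9 guides. Single cells were sorted to give clones, and the cells were routinely kept in medium with serum and LIF. PolyA RNA of these cells was sequenced in 2 libraries that share the genotype label, Dicer_KO replicate 1 at passage 7 and Dicer_KO replicate 2 at passage 4. The study describes a pair of different deletions, and the labels do not say which one each library carries. Wild-type libraries were not analysed here, so no value below compares knockout with wild-type cells, and differences between the libraries cannot be assigned to passage, deletion, clone or library preparation, which cannot be told apart.

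Pluripotent cells pass through a series of states between the blastocyst and gastrulation. Naive cells, the state that mESCs resemble in culture, express factors such as Nanog, Klf4 and Esrrb, while formative and primed cells, which resemble the epiblast around and after implantation, start to express Otx2, Pou3f1, Fgf5 and Dnmt3b. FGF signalling through ERK drives the passage towards the formative state, and Wnt signalling through beta-catenin and the TCF/LEF factors modulates it. Dicer cuts microRNA (miRNA) precursors, and the miR-290 to miR-295 cluster supplies the most abundant miRNAs of mESCs. Cells of the formative state and RNA per cell cannot be separated in bulk RNA, so a lower value may stand for fewer such cells or for less RNA in each.

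The libraries held 41710122 and 41566184 counts on genes, so that 3 counts, the limit that a count of 0 allows, stand for 0.0719 and 0.0722 counts per 1000000 counts on genes (CPM). Dicer1 itself had 1343 counts in replicate 1 and 1510 in replicate 2, or 32.2 (95% Wilson interval 30.5 to 34.0) and 36.3 CPM (34.5 to 38.2), and without wild-type values these do not check the genotype label. The paper reports from its RNA sequencing that both mutants lost Dicer mRNA. Its deletions remove part of Dicer1, while the counts here sum over all exons of the gene. Of the core pluripotency genes, which define the labelled cell type, Pou5f1 was at 417 and 460 and Sox2 at 309 and 250 RPKM (CPM divided by the kilobases of exon). Not all core genes were high. Lin28a, the lowest of the 10 by the mean of the libraries, was at 3.62 and 10.4 RPKM. Fibroblast markers, which feeder cells would bring, summed to 9.78 and 7.95 RPKM over 10 genes, most of it from Thy1 and Twist1. The collagen gene Col1a1 had 20 and 18 counts, Dcn had 0 and 19, and Postn was at 0 in both libraries.

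Since Dicer is needed to make mature miRNAs, matches to the seed of miR-291a-3p, miR-294-3p and miR-295-3p were searched for in the markers. Other members of the miR-290 to miR-295 cluster were not searched. The study probed miR-295 and miR-16 to check the knockout. The mature sequences, from RefSeq on GRCm38.p6, are given below. The seed, bases 2 to 8, is in capitals to show that miR-291a-3p, miR-294-3p and miR-295-3p share it while miR-16 has another. They lie on the plus strand at chr7:3218968-3218989, chr7:3220691-3220712, chr7:3220815-3220837 and, for miR-16-5p at 1 of its 2 loci, chr3:69009918-69009939.
miR-291a-3p: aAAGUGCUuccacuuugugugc
miR-294-3p: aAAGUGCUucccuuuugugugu
miR-295-3p: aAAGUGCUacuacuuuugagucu
miR-16-5p: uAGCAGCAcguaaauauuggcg

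The 3′ untranslated regions (3′UTRs) of the markers, 588 to 2718 bases long in the longest coding transcript, held the letters AGCACTT 3 times. These letters pair with the seed shared by miR-291a-3p, miR-294-3p and miR-295-3p. Lef1 held 1 match and Grhl2 held 2, while the other 7 markers held 0. Only the transcript's own strand was read, since a miRNA pairs with the transcript. The letters TGCTGCT, which pair with the miR-16 seed, were in 0 of the 9 markers. Over all 20940 genes with a 3′UTR, 14.5% held AGCACTT and 20.1% held TGCTGCT, so 2 markers of 9 (22.2%) and 0 of 9 are counts too small to set apart from these shares. The windows of 30 bases around the matches show where they lie, on GRCm38 and with the match in capitals. All are in the last exon, exon 12 of Lef1 (chr3:131224067-131224096, plus strand) and exon 16 of Grhl2 (chr15:37362320-37362349 and chr15:37362711-37362740, plus strand).
Lef1, 3′UTR bases 1009 to 1015: gtaaaaagcccAGCACTTgaattgttcttt
Grhl2, 3′UTR bases 1480 to 1486: tttgtctgcgaAGCACTTtgatgttttacc
Grhl2, 3′UTR bases 1871 to 1877: ccctgtgctatAGCACTTggggctagctgc
Of the markers, Lef1 differed most and Grhl2 least between the libraries, as given below. Both libraries are labelled Dicer knockout, so that ratio does not compare cells with and without mature miRNAs. A part of the matches in these levels was not tested. A match gives no evidence of binding.

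The markers were expressed at very unequal levels in Dicer_KO mESCs. Otx2, Foxd3, Zic2 and Grhl2, all transcription factors, held 90.8% of the RPKM summed over the 9 genes, and Otx2 was 159-fold above Fgf5, the marker with the lowest level. The sum was 61.1 RPKM in replicate 1 and 101 RPKM in replicate 2. Levels between genes are compared per kilobase of the union of a gene's exons. In order of the mean over the 2 libraries, Otx2 had 22.1 ± 11.1 RPKM (SD, n = 2), Foxd3 17.6 ± 6.61, Zic2 17.5 ± 6.16, Grhl2 16.4 ± 0.098, Fgf15 3.85 ± 3.28, Sall2 1.89 ± 0.10, Lef1 0.846 ± 0.876, Pou3f1 0.730 ± 0.169 and Fgf5 0.139 ± 0.075. Among neighbours in this order, both libraries of one gene lay above both of the next for Grhl2 over Fgf15, Sall2 over Lef1 and Pou3f1 over Fgf5. The other 5 neighbouring pairs did not differ beyond the spread between libraries. Against the 21474 protein-coding genes, Otx2 lay above 89.3%, Foxd3, Zic2 and Grhl2 above 85.0% to 86.0%, Fgf15 above 61.7%, Sall2 above 53.2%, Lef1 above 46.7%, Pou3f1 above 45.7% and Fgf5 above 34.9%. These genes include ones without counts in either library, so a place near the middle does not stand for a middle level.

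**Figure D1:**
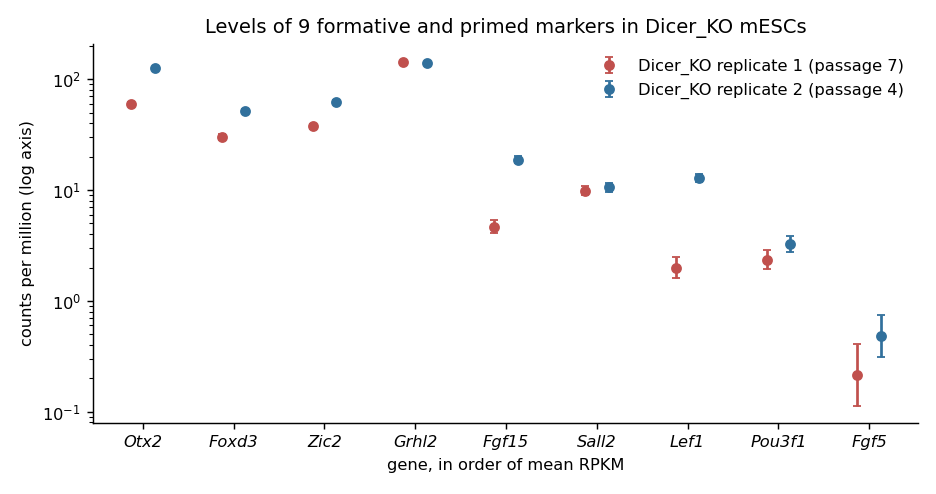
Level of each marker in CPM on a log axis, with 1 point for each Dicer_KO library and bars for the 95% Wilson interval of the count; genes stand in order of mean RPKM. Otx2, Foxd3, Zic2, Fgf15 and Lef1 were lower in replicate 1 with intervals that did not overlap, while Grhl2 stood at 142 and 141 CPM and Fgf5 below 1 CPM in both.

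Between the 2 libraries the markers differed in 1 direction: all 9 were lower in replicate 1, at passage 7, after scaling by the TMM method of edgeR. This compares libraries, not conditions, and with 1 library on each side no test is possible. The log2 ratio of replicate 1 over replicate 2 had a median of -0.90 over the markers and ran from -2.80 for Lef1 to -0.11 for Grhl2. Over the 17788 genes above the same minimum its median was 0.02, the range from the 5th to the 95th percentile was -1.23 to 1.86, and 48.7% of genes were lower in replicate 1 by any amount. Lef1, Fgf15, Otx2 and Fgf5 were over 2-fold lower in replicate 1. So 4 of 9 markers passed 2-fold, against 21.4% of all genes in either direction and 7.14% in this one. The markers were chosen with earlier results of these data known, so these shares describe them and test nothing. Fgf5, with 9 and 20 counts, reached the minimum only through replicate 2, and its counting interval ended at -0.07. With a minimum mean of 100 counts, which leaves Fgf5 out, 3 of 8 markers and 14.0% of all genes passed 2-fold in either direction. The counting interval of the ratio left out equality for 9 of 9 markers and for 73.2% of all genes, which is most of the genes with a ratio. Scaled by total counts, where the median of all genes lies at 0.14, 8 of the 9 markers and 41.3% of all genes were lower in replicate 1 and Grhl2 was level, at 0.01.

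**Figure D2:**
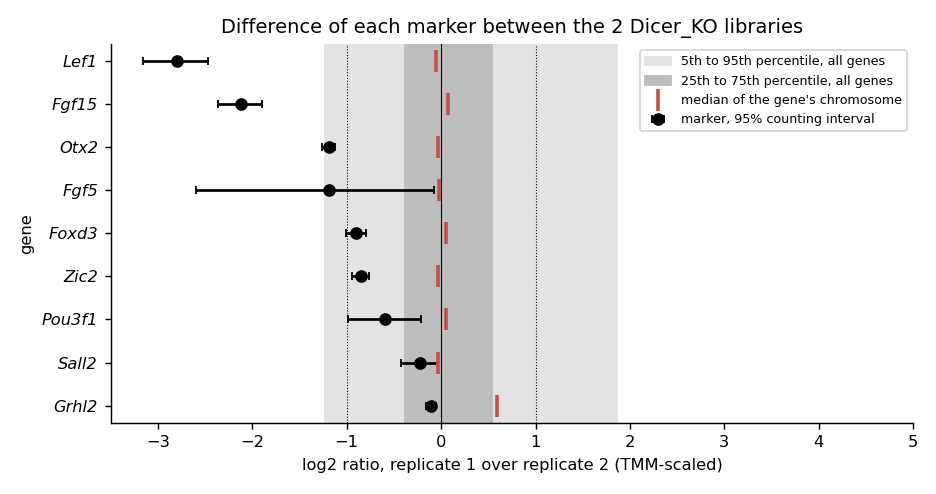
Log2 ratio of replicate 1 over replicate 2 for each marker (points) with the 95% counting interval (bars), over bands that hold the middle 50% and 90% of all 17788 genes; red ticks give the median of the genes on the same chromosome and dotted lines mark 2-fold. All 9 points lie left of 0, Lef1 and Fgf15 outside the wider band, and Grhl2 lies 0.70 left of the median of chromosome 15.

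Both FGF ligands among the markers were lower in replicate 1. Fgf5, a ligand switched on in the epiblast after the naive state, lies on chromosome 5 of GRCm38 (98254184 to 98277030, plus strand, 3 exons). It had 9 counts in replicate 1 and 20 in replicate 2, or 0.216 CPM (95% Wilson interval 0.114 to 0.410) and 0.481 CPM (0.311 to 0.743). Both counts were above the limit of 3 counts, and the CPM intervals overlapped. The log2 ratio was -1.19 with a counting interval of -2.59 to -0.07, so the fold, 2.28 in favour of replicate 2, is known only to lie between 1.05 and 6.03 from counting alone. The study measured this gene by RT-qPCR, and the primers are shown because they tell which part of the transcript that assay reads.
Fgf5 forward primer: gcctgtccttgctcttcctcat
Fgf5 reverse primer: ggagaagctgcgactggtga
Both match exon 1, at chr5:98254416-98254437 and, as the reverse complement, at chr5:98254586-98254605, inside the coding sequence. The product of 190 bases crosses no intron, while the counts here cover all 2501 bases of exon.

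Fgf15, the ligand through which the gut restrains bile acid synthesis in the liver and a gene of the early embryo and brain, stood far above Fgf5. It lies on chromosome 7 (144896531 to 144900953, plus strand) and had 195 counts in replicate 1 and 784 in replicate 2, or 4.68 and 18.9 CPM. The ratio of -2.12 (-2.36 to -1.90) is 4.36-fold in favour of replicate 2, and 1.28% of all genes had a ratio this low or lower. An antisense gene, Gm26793, overlaps 761 bases (24.9%) of the Fgf15 exons and had 3 and 14 counts. The authors left out reads on overlapping regions, so the level of Fgf15 per base may be understated in both libraries. The same holds to a lesser degree for Pou3f1 (8.57% of its exons), Foxd3 (3.83%), Otx2 (3.65%) and Grhl2 (1.96%). Only the overlap at Foxd3 is on the same strand.

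Within the FGF family, 22 genes were listed and 13 had enough counts for a ratio, of which 4 were over 2-fold lower in replicate 1 and 2 over 2-fold higher, beside 7.14% and 14.2% of all genes. Of these, Fgf5, Fgf18 and Fgf21 averaged 10 counts only through the library where they were higher, so their calls rest in part on that minimum. The median log2 ratio was 0.19, and it turned to -0.21 over the genes that average 100 counts or more. Fgf4, the ligand through which mESCs drive their own exit from the naive state, was the highest of the family, at 168 RPKM in replicate 1 and 121 in replicate 2, with a log2 ratio of 0.35 (0.32 to 0.38). Besides both markers, Fgf17 (49 and 249 counts, log2 ratio -2.44) and Fgf18 (7 and 60 counts, -3.05) were lower in replicate 1. Fgf21 went the other way, with 190 and 7 counts and a log2 ratio of 4.47 (3.57 to 5.97), as did Fgf11 with 111 and 34 counts and 1.56.

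Otx2, a homeobox factor that directs the passage from the naive to the formative state, was the highest marker per kilobase by the mean of the libraries and in replicate 2, while Grhl2 was higher in replicate 1, at 16.5 against 14.3 RPKM. It lies on chromosome 14 (48657677 to 48673819, minus strand) and had 2515 counts in replicate 1 and 5266 in replicate 2, or 60.3 CPM (58.0 to 62.7) and 127 CPM (123 to 130). The CPM intervals were far apart, and the log2 ratio was -1.19 (-1.26 to -1.12), or 2.28-fold. This is the same ratio as that of Fgf5, at a mean count of 3890.5 against 14.5, and its counting interval is correspondingly narrow. The antisense gene Otx2os1 shares 154 exon bases with Otx2 and had 23 and 36 counts. Of its relatives, Otx1, a forebrain factor, was higher in replicate 1, with 67 and 17 counts and a log2 ratio of 1.80 (1.07 to 2.72), and Crx, which acts in photoreceptors, had 3 counts and 1.

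Pou3f1, the POU factor also called Oct6, cooperates with Otx2 in the formative state and later acts in myelinating glia. It lies on chromosome 4 (124656807 to 124660655, plus strand). It had 98 counts in replicate 1 and 136 in replicate 2, or 2.35 and 3.27 CPM, with overlapping CPM intervals. The log2 ratio of -0.59 (-0.98 to -0.21) amounts to 1.51-fold, and 16.0% of all genes had a ratio as low or lower. It was the highest of its family in both libraries, since Pou3f2, Pou3f3 and Pou3f4 had 4 to 23 counts.

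Foxd3, a forkhead factor needed for the epiblast and for neural crest, and Zic2, a zinc finger factor of the epiblast and neural plate, were alike in level and in ratio. Foxd3, on chromosome 4 (99656299 to 99658622, plus strand), had 1254 and 2152 counts, or 30.1 and 51.8 CPM, and a log2 ratio of -0.90 (-1.003 to -0.80). Zic2, on chromosome 14 (122475435 to 122479852, plus strand), had 1573 and 2611 counts, or 37.7 and 62.8 CPM, and a log2 ratio of -0.85 (-0.94 to -0.76). For both, the CPM intervals of the libraries did not overlap and the ratio stayed within 2-fold, at 1.87-fold and 1.81-fold. The other FOXD genes were close to absent, with 0 to 17 counts.

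The neighbour of Zic2 in its own family was lower in replicate 1 by nearly the same amount. Zic5, which lies next to Zic2 on the opposite strand, had 1967 and 3025 counts and a log2 ratio of -0.74 (-0.83 to -0.66). Zic1, on another chromosome, had 8 and 5 counts. The noncoding gene Gm12688 beside Foxd3 had fewer counts in replicate 1, with 157 and 249 and a log2 ratio of -0.78. Other noncoding neighbours had more counts in replicate 1. Gm12682 beside Foxd3 had 28 and 21 counts and a log2 ratio of 0.28. At Zic2, 2610035F20Rik had 14 and 9 counts and 0.47.

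Sall2, a zinc finger factor expressed as cells leave the naive state, differed least among the markers after Grhl2. It lies on chromosome 14 (52311172 to 52328762, minus strand) and had 412 counts in replicate 1 and 443 in replicate 2, or 9.88 and 10.7 CPM. The CPM intervals overlapped, and the log2 ratio of -0.23 (-0.42 to -0.03) is 1.17-fold. Its relatives Sall1 and Sall4, the latter a core pluripotency factor, were far above it per kilobase in both libraries, at 73.0 and 80.6 RPKM and at 39.0 and 57.1 RPKM. Sall3 had nearly the same level as Sall2 in replicate 1, 1.53 RPKM, but 5.26 RPKM in replicate 2, a log2 ratio of -1.89 (-2.05 to -1.75).

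Grhl2, a grainyhead factor that opens enhancers of epithelial genes in formative cells, was the marker with the most counts, and the libraries were level for it. It lies on chromosome 15 (37233036 to 37363569, plus strand) and had 5924 counts in replicate 1 and 5854 in replicate 2, or 142 and 141 CPM. The log2 ratio was -0.11 (-0.16 to -0.05) with TMM scaling and 0.01 with total counts, so its direction depends on the scaling. Its chromosome stood apart from the others. The 683 genes of chromosome 15 had a median log2 ratio of 0.59, while the medians of the other 18 autosomes ran from -0.08 to 0.08, and 88.1% of chromosome 15 genes had a higher ratio than Grhl2. Set against that median, Grhl2 was at -0.70. Its relatives were both slightly higher in replicate 1, Grhl1 at 0.38 (0.23 to 0.52) and Grhl3 at 0.43 (0.30 to 0.57). The medians of the chromosomes that hold the other 8 markers lay close to 0, as the red ticks in the plot of ratios show.

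Lef1, the TCF/LEF factor that relays Wnt signals with beta-catenin and rises in primed cells, differed most. It lies on chromosome 3 (131110471 to 131224356, plus strand) and had 83 counts in replicate 1 and 535 in replicate 2, or 1.99 and 12.9 CPM. The log2 ratio was -2.80 (-3.16 to -2.47), a difference of 6.94-fold (5.56 to 8.95), and 0.528% of all genes had a ratio as low or lower. Hadh, next to Lef1, had 5352 and 4204 counts and a log2 ratio of 0.23, within 2-fold and in the other direction. The other TCF genes, which can bind the same sites, differed much less. Tcf7 was at -0.58 (-0.68 to -0.48), Tcf7l1, a repressor that favours the exit from the naive state, at -0.52 (-0.61 to -0.43) and Tcf7l2 at 0.04 (-0.11 to 0.18). Per kilobase of the union of exons, Lef1 was the lowest of this family in both libraries, at 0.226 and 1.46 RPKM. Tcf7 was at 12.3 and 17.0 RPKM. With its longest transcript, which has 4 exons, as length, the mean of Lef1 rises from 0.846 to 2.03 RPKM. That length was not applied to the other genes of the family, so the place of Lef1 among them holds for the union only.

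**Figure D3:**
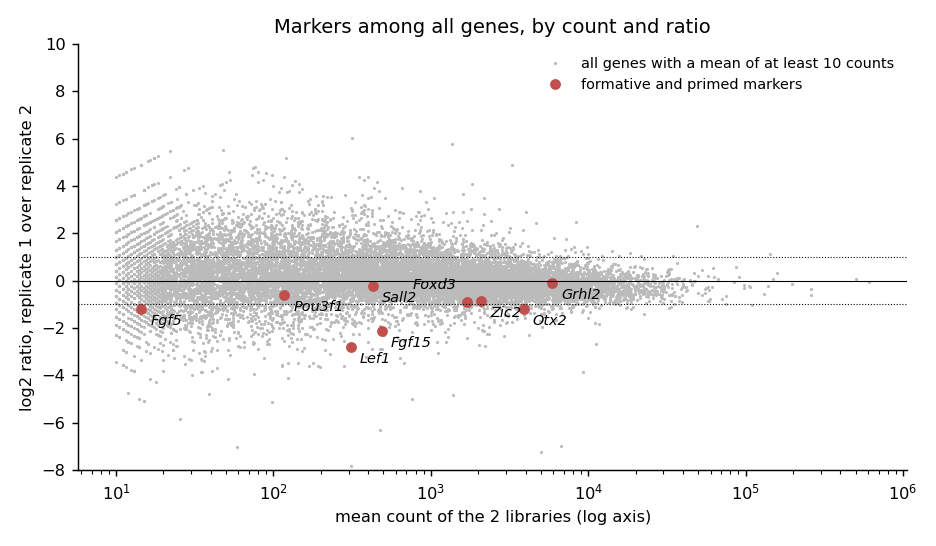
Log2 ratio of replicate 1 over replicate 2 against the mean count of the 2 libraries (log axis) for all 17788 genes that average 10 counts or more (grey) and the 9 markers (red, labelled); dotted lines mark 2-fold. Otx2, with a mean of 3890.5 counts, and Fgf5, with 14.5, have the same ratio, and Lef1 lies lowest of the markers.

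**Figure D4:**
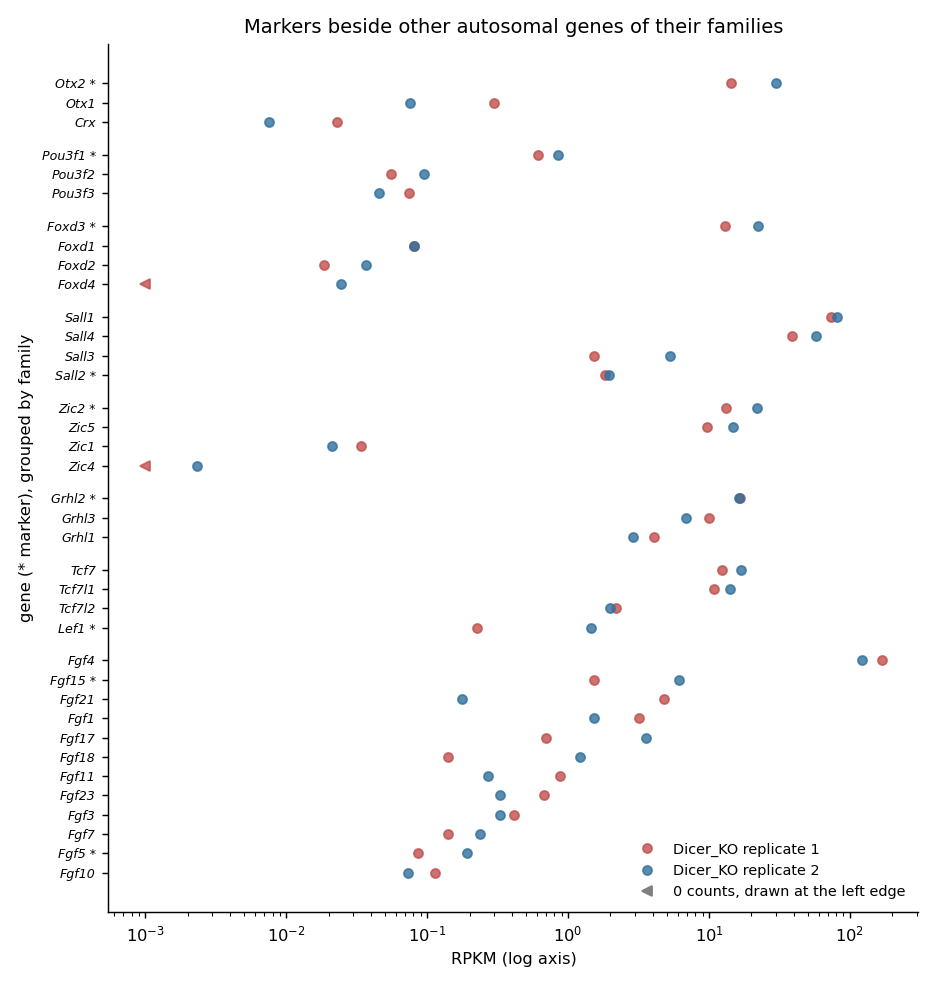
RPKM on a log axis in replicate 1 (red) and replicate 2 (blue) for the markers (asterisks) and other autosomal genes of their families, with FGF genes limited to those that average 10 counts or more; a triangle at the left edge stands for 0 counts. Otx2, Pou3f1, Foxd3 and Grhl2 were the highest of their families, while Sall2 and Lef1 were the lowest of theirs by the mean of the libraries.

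A wider list of 35 other genes linked to the formative and primed states, which shares the FGF-ERK and Wnt genes named in it with the lists described next, was mixed. In replicate 1, 11 of the 35 were over 2-fold lower and 5 over 2-fold higher, beside 7.14% and 14.2% of all genes, and the median log2 ratio was -0.52. The lower ones included the de novo DNA methyltransferase Dnmt3b, with 5495 and 17958 counts and a log2 ratio of -1.83 (-1.87 to -1.79), and its cofactor Dnmt3l at -1.56 (-1.63 to -1.48). They also included the RNA-binding protein Lin28a at -1.64, the SOX factors Sox4 at -1.43 and Sox11 at -1.58, and the cadherin Cdh2, with 31 and 328 counts and -3.48 (-4.11 to -2.99). The 5 higher ones were the epithelial genes Krt18, at 2.90 (2.80 to 3.01), Krt8 at 2.42 and Cldn6 at 1.35, the Nodal antagonist Lefty1 at 1.82, and Car4, with 42 and 8 counts. Krt18 and Krt8 lie on chromosome 15, and Car4 had enough counts only through replicate 1.

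Genes of FGF-ERK signalling, the pathway that drives the passage to the formative state, differed between the libraries in both directions. Of 23 genes, 22 had enough counts. Of these, 6 were over 2-fold lower in replicate 1 and 1 over 2-fold higher, beside 7.14% and 14.2% of all genes. The median log2 ratio was -0.27, and it moved to -0.40 over the genes that average 100 counts or more. The lower ones were the ETS factors Etv1, with 259 and 1971 counts and a log2 ratio of -3.05 (-3.24 to -2.86), and Etv4 at -1.22, the feedback inhibitors Spry4 at -2.11 and Spry2 at -1.74, the ERK phosphatase Dusp4 at -1.26, and the co-receptor Klb, which serves Fgf15 and Fgf21 in the liver, at -1.95. The exception was the receptor Fgfr3, with 32 and 14 counts and 1.02 (0.12 to 2.09). The target Etv5, with 16090 and 22284 counts, was within 2-fold at -0.59, as were the inhibitors Spry1 and Dusp6, at -0.22 and -0.48, the target Egr1, at -0.61, and the kinase Mapk3, at 0.50.

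Genes of Wnt signalling showed no common direction beside Lef1. Of 17 genes, 14 had enough counts, of which 2 were over 2-fold lower in replicate 1 and 3 over 2-fold higher, beside 7.14% and 14.2% of all genes, with a median log2 ratio of 0.05. The lower ones were the Wnt targets Sp5, with 6 and 27 counts, and Lgr5, with 2 and 27. Both had enough counts only through replicate 2, as Cdx1, below, had only through replicate 1. The higher ones were the ligand Wnt3a, with 150 and 24 counts and a log2 ratio of 2.48 (1.89 to 3.21), the Wnt-responsive factor Cdx1, with 76 and 5 counts and 3.58, and the inhibitor Nkd1, with 43 and 16 counts and 1.26. Beta-catenin itself, Ctnnb1, was at 183 and 188 RPKM.

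Trophectoderm markers were higher in replicate 1, where the formative markers were lower. Their sum over 10 genes was 60.1 RPKM in replicate 1 and 30.9 RPKM in replicate 2. Of the 8 with enough counts, 6 were over 2-fold higher in replicate 1, beside 14.2% of all genes. Their median log2 ratio was 1.55. It moved to 1.20 over genes averaging 100 counts or more, 1.44 with a pseudocount of 5 and 1.73 with no minimum. The keratin Krt7, on chromosome 15, had 2674 and 44 counts, Hand1 had 229 and 15, and Tfap2c had 3742 and 1311. Cdx2, which defines this lineage, had 6 counts and 1, and Tead4 and Ascl2 were level, at -0.12 and -0.08. No trophectoderm marker was at 0 in either library. Their part in the lower levels of the formative markers was not tested. Like the other lists, this one was chosen with earlier results of these data known, so its counts describe it and test nothing.

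**Figure D5:**
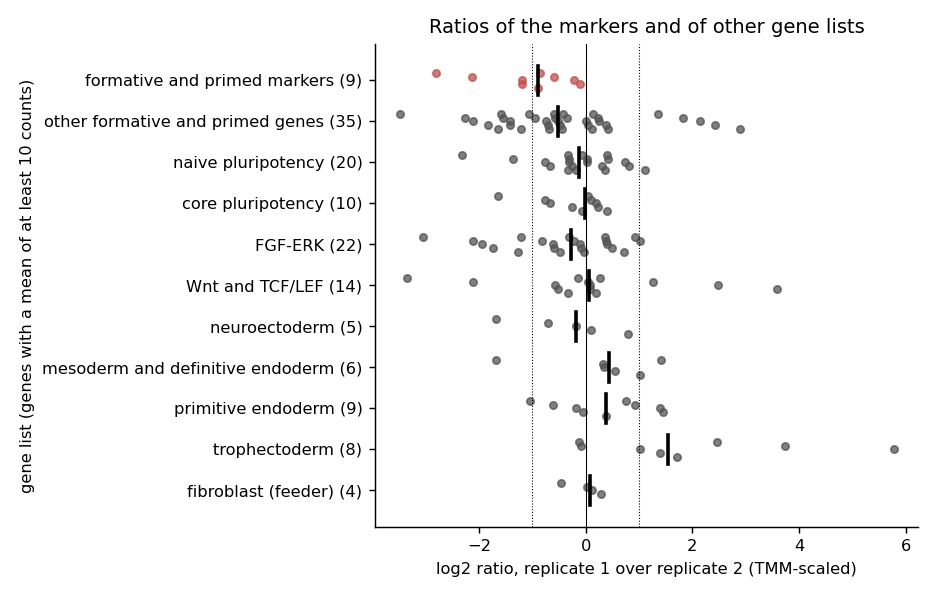
Log2 ratio of replicate 1 over replicate 2 for the markers (red) and for the genes of other lists (grey) that average 10 counts or more, whose number stands in parentheses; a black bar gives each list's median and dotted lines mark 2-fold. The markers have a median of -0.90, the other formative and primed genes -0.52 and the trophectoderm genes 1.55; some genes stand in more than 1 list.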

How the data were processed

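PolyA RNA of 2 Dicer_KO libraries was measured. The authors prepared stranded TruSeq libraries, sequenced them as pairs on an Illumina HiSeq, trimmed reads with Trimmomatic, aligned them to mm10 with STAR (version 2.4.2a) allowing many hits per read, and assigned them to Ensembl genes with featureCounts (version 1.4.5-p1), ignoring reads where genes overlap. What they deposited are raw counts for each gene. The strand setting of the counting and its treatment of reads with several hits are not given in the sources used here, so genes with near-identical copies or antisense partners are uncertain.

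Library totals were 41710122 and 41566184 counts. Replicate 2 was scaled to replicate 1 with the TMM method in edgeR (version 4.0.16, under R 4.3.3), which gave a factor of 1.088. Log2 ratios took a pseudocount of 1 and genes that average 10 counts or more. A gene can reach that mean through 1 library alone, as Fgf5, Fgf18, Fgf21, Sp5, Lgr5, Cdx1, Car4 and Gata6 did. Their 95% intervals are exact binomial ones (Clopper-Pearson, scipy 1.17.1), CPM intervals are Wilson ones, and both cover counting error only. RPKM used the union of exons of GENCODE M21 (GRCm38), which names 42462 of the 43629 genes. Those without a name held 0.190% and 0.187% of the counts.

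With both libraries in 1 group no test or p-value was computed, and the labels give the passages without saying which clone each library came from. The log2 ratios, scaled there by total counts, and their binomial intervals were tested on simulated data. The TMM scaling and the Wilson intervals were not. The markers and gene lists were chosen with earlier results of these data known. Named are all markers, Dicer1, genes among the 4 highest of their list or past 2-fold, neighbours within 20 kb, and a few pathway, low or lineage-defining genes chosen after their values were seen. Alternatives were total counts, raw counts, DESeq2 scaling (version 1.42.0), other pseudocounts, minimums, thresholds and lengths, and leaving out a replicate. Some genes of the lists are not reported by name here, though they count in the lists' totals.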

Additional observations from a re-analysis of the deposited data

How the results depend on the processing

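No paired analysis was possible because there is only 1 group, which both libraries share. With a minimum mean of 100 counts, 14.0% of all genes passed 2-fold. At 1.5-fold, 7 markers and 39.6% of genes passed, and at 4-fold 2 markers and 5.71%. These follow from fewer genes or another threshold. Of 45 marker ratios under other scalings and pseudocounts, 37 stayed within the counting interval, the other 8 being Otx2, Foxd3, Zic2 and Grhl2 with total or raw counts, and 0 past 2-fold changed sign. With a pseudocount of 5, 3 markers passed 2-fold. The minimum of 100 counts leaves out Fgf5, and 3 of 8 markers then passed. With the longest transcript as length, Otx2 rises to 36.1, Grhl2 to 28.6 and Lef1 to 2.03 RPKM, which puts Grhl2 above Foxd3 and Zic2 and Lef1 above Sall2. With replicate 1 alone, 2 of 9 markers keep their place in the order of levels. Of the list medians under alternatives, 126 stayed within 0.1 of the main value once the shift of all genes was taken off, and 14 moved further. Depth limits Fgf5, with 9 counts in replicate 1.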

Other observations

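The naive state was described by 20 genes, all with enough counts for a ratio. In replicate 1, 2 were over 2-fold lower and 1 was over 2-fold higher, beside 7.14% and 14.2% of all genes, and the median log2 ratio was -0.13. Nr0b1 was lower, with 3125 and 7364 counts and a log2 ratio of -1.36 (95% counting interval -1.42 to -1.30), as was Gbx2, with 60 and 280 counts and -2.33 (-2.77 to -1.94). Dppa5a, the highest of the list, was at 1.11 (1.10 to 1.13), and Nanog, with 47522 and 26215 counts, was within 2-fold at 0.74 (0.71 to 0.76). The 10 core pluripotency genes had a median of -0.01 (0.10 with total counts), and Lin28a alone was beyond 2-fold. No naive or core gene was at 0 in either library.

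Markers of other lineages were low in most cases. Of 10 neuroectoderm genes, 5 had enough counts, with a median of -0.19 that moved to -0.70 over genes averaging 100 counts or more and to -0.05 with no minimum, and the neuronal tubulin Tubb3 was the 1 beyond 2-fold, at 559 and 1653 counts. Of 12 genes of mesoderm and definitive endoderm, 6 had enough counts, with a median of 0.44 that turned to -0.33 over genes averaging 100 counts or more. Eomes (334 and 151 counts) and Gsc (42 and 14) were over 2-fold higher in replicate 1 and Evx1 (128 and 379) was lower, and Cer1 and Actc1 were at 0 in both. Of 10 genes of primitive endoderm, 9 had enough counts, with a median of 0.38 that moved to 0.48 with no minimum. Gata6 and Dab2 were higher and Cubn lower in replicate 1, and Gata6 had enough counts only through replicate 1. The 4 fibroblast genes with enough counts had a median of 0.07. The explanation of these differences was not tested.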
